A study of Mus musculus with 12 samples.

Results

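The genes described are 5 that carry the C/EBP name, CEBPA, CEBPB, CEBPD, CEBPG and CEBPZ, selected by symbol from a table of 23636 symbols. The choice was made with earlier results of these data known. They were measured by RNA sequencing in CT26 cells, a mouse colon carcinoma line. The cells had no treatment or were given CX3CL1 at 2 µg/ml, IFN-γ at 100 ng/ml, or CX3CL1+IFN-γ at these doses, for 8 hours, and each of these 4 groups had 3 biological replicates. The group names follow the labels, which list IFN-γ alone as the cytokine; the study's text on this experiment also speaks of TNF-α and of CX3CL1 given after the cytokines, so whether TNF-α was present in the IFN-γ groups cannot be settled from the sources used here. CX3CL1 is the chemokine ligand of the receptor CX3CR1, and the study asked which mediators of tumor cells respond to it, with and without the inflammatory cytokine IFN-γ. All libraries came from the same cell line in culture, so no host cells were present. Values are TPM, which are scaled by transcript length and library total, though the way they were made is not given in the sources used here. Levels of different genes are set side by side with a limit. CX3CL1 replicate 2 deviated by GC content, in which the members differ.

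C/EBP proteins are basic leucine zipper (bZIP) transcription factors that bind DNA as dimers, with each other or with other bZIP proteins. C/EBP-β and C/EBP-δ are known for their part in inflammation and the acute-phase response, where they act beside NF-kB and STAT3 on genes such as IL6, and C/EBP-β was also named NF-IL6. C/EBP-α is known for the differentiation of adipocytes, hepatocytes and granulocytes, and C/EBP-γ lacks a strong activation domain and pairs with other members and with ATF4. CEBPZ is a family member by name only: it lacks the leucine zipper and is related to yeast Noc1, a factor of ribosome biogenesis.

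CEBPD and CEBPB, the inflammatory members, were the members whose mRNA changed. CEBPD rose 6.05-fold with CX3CL1, and CEBPB rose 1.68-fold with IFN-γ, the latter not passing without the libraries numbered 1 (limma adjusted p = 0.082). CEBPD was also 2.38-fold higher with IFN-γ (limma adjusted p = 0.115, and 0.0225 with the replicate number as a block). Between IFN-γ and CX3CL1 neither gene passed without the block (limma adjusted p = 0.109 for CEBPD and 0.151 for CEBPB). CEBPD and CEBPB had their highest mean with CX3CL1+IFN-γ, where CEBPD was 11.9-fold and CEBPB 2.28-fold above no treatment. CEBPG and CEBPZ passed the test in no comparison, and CEBPA was listed close to 0 in every library. Folds are on the log2(TPM + 1) scale, which understates changes of low genes. The RNA was taken in bulk, so fewer cells that express a gene and less of its RNA per cell cannot be told apart.

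**Figure D1:**
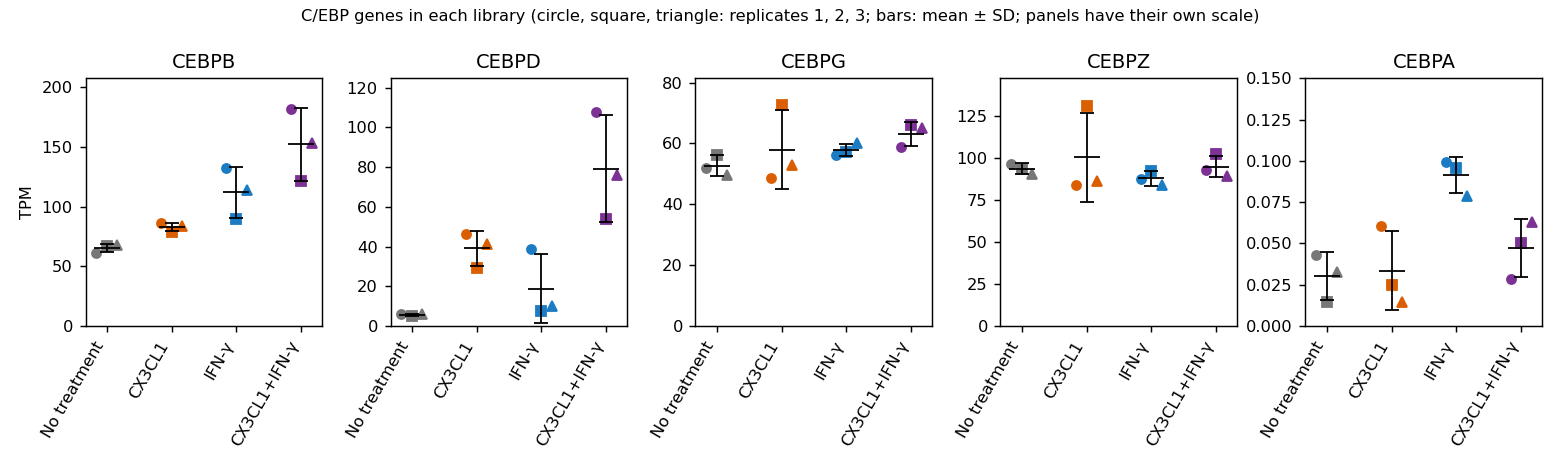
TPM of the 5 C/EBP genes in each of the 12 libraries, by group, with the mean and SD of 3 replicates; each panel has its own scale from 0. CEBPB and CEBPD have their highest mean with CX3CL1+IFN-γ, CX3CL1 replicate 2 lies above the other libraries for CEBPG and CEBPZ, and every CEBPA value is under 0.1 TPM.

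The members differ in gene structure and in the sequence before their start. By the GENCODE annotation of GRCm38, CEBPA (chromosome 7, 35119293 to 35121928, plus strand), CEBPB (chromosome 2, 167688915 to 167690418, plus strand) and CEBPD (chromosome 16, 15887286 to 15891031, plus strand) have 1 exon each. CEBPG (chromosome 7, 35046422 to 35056573, minus strand) has 2 exons and lies 62719 bases from CEBPA. CEBPZ (chromosome 17, 78919006 to 78937066, minus strand) has 16 exons and overlaps the gene CEBPZOS on the other strand by 1301 bases. The longest CEBPB transcript has a GC content of 67.2%, higher than in 99.8% of the genes tested, against 51.6% for CEBPD, 43.3% for CEBPG and 43.4% for CEBPZ.

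The 250 bases before the RefSeq start (GRCm38.p6) are shown for a member that changed (CEBPB, chr2:167688665-167688914, plus strand), a member without a called change (CEBPG, chr7:35056567-35056816, minus strand) and the member near 0 (CEBPA, chr7:35119043-35119292, plus strand). These are the 3 members that matched the promoter table. Sequences run 5′ to 3′ along the gene's strand, and capitals mark TGACG (the core of the cAMP response element), CCAAT or TATAAA on either strand.
CEBPB: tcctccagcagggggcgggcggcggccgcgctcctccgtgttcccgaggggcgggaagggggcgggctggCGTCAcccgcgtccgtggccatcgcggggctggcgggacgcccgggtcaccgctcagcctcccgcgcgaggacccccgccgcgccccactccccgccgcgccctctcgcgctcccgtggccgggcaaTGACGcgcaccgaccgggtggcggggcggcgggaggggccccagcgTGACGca
CEBPG: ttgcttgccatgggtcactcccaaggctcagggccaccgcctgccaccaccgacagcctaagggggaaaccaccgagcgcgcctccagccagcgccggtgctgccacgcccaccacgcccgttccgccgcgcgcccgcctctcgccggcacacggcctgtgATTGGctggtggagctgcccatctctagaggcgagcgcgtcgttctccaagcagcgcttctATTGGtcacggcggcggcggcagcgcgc
CEBPA: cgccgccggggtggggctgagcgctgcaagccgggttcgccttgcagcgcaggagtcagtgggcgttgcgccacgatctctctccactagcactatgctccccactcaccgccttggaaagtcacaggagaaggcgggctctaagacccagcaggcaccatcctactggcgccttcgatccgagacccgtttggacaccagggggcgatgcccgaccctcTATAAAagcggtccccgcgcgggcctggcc
The CEBPB window held TGACG 3 times, of which the nearest to the start lay at -53 to -49 and at -7 to -3, and it held GGGCGG, the GC box, 5 times. TGACG was found in 17.8% and GGGCGG in 32.7% of 32851 promoter windows of this length. The CEBPG window held CCAAT on the minus strand of the gene at -89 to -85 and at -28 to -24, a motif found in 33.8% of windows. The CEBPA window held TATAAA at -30 to -25, as did 12.4% of windows. The C/EBP site TTGCNNAA (9.56% of windows), the STAT site TTCNNNGAA (7.02%) and the NF-kB consensus (3.9%) were not among the letters of these 3 windows, on either strand.

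CEBPD encodes C/EBP-δ, a factor that is low in many resting cells and induced early by inflammatory signals. In untreated CT26 cells it was listed at 5.76, 4.84 and 5.98 TPM in replicates 1, 2 and 3, and in CT26 cells treated with CX3CL1 at 46.5, 29.2 and 41.5 TPM. With IFN-γ it was at 38.7, 7.38 and 10.2 TPM, and with CX3CL1+IFN-γ at 108, 54.1 and 76.0 TPM. The CX3CL1 and CX3CL1+IFN-γ libraries all lay above the untreated ones, as was the case for 5.5% and 18.6% of all genes. The IFN-γ group held 2 libraries close to the untreated level and replicate 1 far above them. The means were 5.53 ± 0.603, 39.1 ± 8.89, 18.7 ± 17.3 and 79.2 ± 27.0 TPM (SD, n = 3) for no treatment, CX3CL1, IFN-γ and CX3CL1+IFN-γ. The share of genes tested with a lower mean than CEBPD was 23.2% without treatment, 64.7% with CX3CL1, 44.2% with IFN-γ and 80.3% with CX3CL1+IFN-γ.

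With CX3CL1 against no treatment, CEBPD rose by 2.60 on the log2 scale (SE 0.445, 95% interval 1.63 to 3.56, limma adjusted p = 0.00636), rank 18 of 11878 genes by size of increase. It was the only C/EBP gene of 4 tested that passed, beside 1.95% of all genes in either direction and 1.78% in the higher direction. CEBPB and CEBPD were the members whose CX3CL1 libraries all lay above the untreated ones, as 5.5% of all genes did. The CEBPD increase passed the test in each of the 17 other settings and subsets of libraries fitted, with log2 values from 2.46 to 2.79.

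In the presence of IFN-γ, the CEBPD difference with CX3CL1 was 2.32 on the log2 scale (95% interval 1.35 to 3.28, limma adjusted p = 0.0513), rank 8 by size, and did not pass the test. No member passed here, beside 0.362% of all genes in either direction and 0.345% in the higher one, and CEBPD was the member whose CX3CL1+IFN-γ libraries all lay above the IFN-γ libraries, as 8.54% of all genes did. The replicate numbers of these groups were found to pair the libraries, and with the replicate number as a block the CEBPD difference passed (adjusted p = 0.00594). The differences between libraries of the same number were 1.45, 2.72 and 2.78, all higher with CX3CL1. Without IFN-γ replicate 1 the difference was 3.00 (adjusted p = 0.000303). Adjusted p-values over the 17 alternatives ran from 0.000303 to 0.328.

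For IFN-γ alone, the CEBPD difference from no treatment was 1.25 on the log2 scale (95% interval 0.29 to 2.22, limma adjusted p = 0.115). The groups did not overlap, as was the case, in the higher direction, for 20.6% of all genes. By replicate number the differences were 2.55, 0.52 and 0.68, so that replicate 1 set much of the mean. With the replicate block the difference passed the test (adjusted p = 0.0225). Without IFN-γ replicate 1 the difference was 0.57 and not called, and without IFN-γ replicate 2 it was 1.69 (adjusted p = 0.0349). Over the 17 alternatives adjusted p-values ran from 0.0225 to 0.303.

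Set directly against each other, IFN-γ and CX3CL1 gave CEBPD a log2 difference of -1.34 (95% interval -2.31 to -0.38, limma adjusted p = 0.109), lower with IFN-γ. No member passed in this comparison, beside 4.58% of all genes, 3.52% higher and 1.06% lower with IFN-γ. With the replicate block it passed (adjusted p = 0.0209), and without IFN-γ replicate 1 it was -2.02 (adjusted p = 0.0026). Over its alternatives adjusted p-values ran from 0.0026 to 0.303. CX3CL1+IFN-γ exceeded CX3CL1 by 0.97 (95% interval 0.008 to 1.94, adjusted p = 0.277), without overlap of the groups, as was the case for 14% of all genes in that direction. Between CX3CL1+IFN-γ and no treatment CEBPD rose by 3.57 (95% interval 2.60 to 4.53, limma adjusted p = 0.000126), and it passed in each of 17 alternatives with values from 3.32 to 3.81.

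CEBPB encodes C/EBP-β, the activator of IL6 and of acute-phase genes, whose mRNA also yields shorter inhibitory protein forms that TPM do not tell apart. It was at 61.4, 66.6 and 67.7 TPM without treatment and at 85.8, 79.0 and 83.9 TPM with CX3CL1. With IFN-γ it was at 132, 89.3 and 114 TPM, and with CX3CL1+IFN-γ at 182, 121 and 153 TPM. The untreated libraries were the lowest without overlap with any treated group, and the ranges with IFN-γ and with CX3CL1+IFN-γ overlapped. Of all genes, 5.5% lay above no treatment without overlap with CX3CL1, 20.6% with IFN-γ and 18.6% with CX3CL1+IFN-γ. Means were 65.2 ± 3.4, 82.9 ± 3.5, 112 ± 21.3 and 152 ± 30.4 TPM (SD, n = 3). CEBPB was thus abundant before treatment, above 77.5% of the genes tested, and above 90.4% with CX3CL1+IFN-γ.

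With IFN-γ against no treatment, CEBPB rose by 0.75 on the log2 scale (SE 0.153, 95% interval 0.42 to 1.08, limma adjusted p = 0.00834). It was the only member of 4 tested that passed, beside 7.85% of all genes in either direction and 5.91% in the higher direction. With CX3CL1+IFN-γ against CX3CL1 it rose by 0.85 (95% interval 0.52 to 1.18, limma adjusted p = 0.00608), again the only member, beside 4.7% of all genes in either direction and 3.76% in the higher one. With CX3CL1+IFN-γ against no treatment it rose by 1.19 (95% interval 0.86 to 1.52, limma adjusted p = 0.00016). There 2 of 4 members tested passed, CEBPB and CEBPD, beside 11.9% of all genes in either direction and 8.21% in the higher one. Replicate 1 had the highest CEBPB value in the 3 treated groups. Leaving out the 4 libraries numbered 1 together, a setting chosen after the data were seen, gave 0.58 (adjusted p = 0.082) for IFN-γ and 0.74 (adjusted p = 0.0566) for CX3CL1+IFN-γ against CX3CL1, so that neither passed with 2 libraries a group. Adjusted p-values over the alternatives ran from 0.00223 to 0.082 and from 0.00155 to 0.0566.

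The difference of CEBPB with CX3CL1 was small: 0.34 on the log2 scale alone (95% interval 0.009 to 0.67, limma adjusted p = 0.59) and 0.44 in the presence of IFN-γ (95% interval 0.11 to 0.77, limma adjusted p = 0.72). By replicate number the latter was 0.46, 0.44 and 0.42, higher with CX3CL1 in 3 of 3. Neither passed in any of 17 alternatives. IFN-γ and CX3CL1 differed by 0.41 (95% interval 0.08 to 0.74, adjusted p = 0.151), with every IFN-γ library above every CX3CL1 library, as for 18.3% of all genes.

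**Figure D2:**
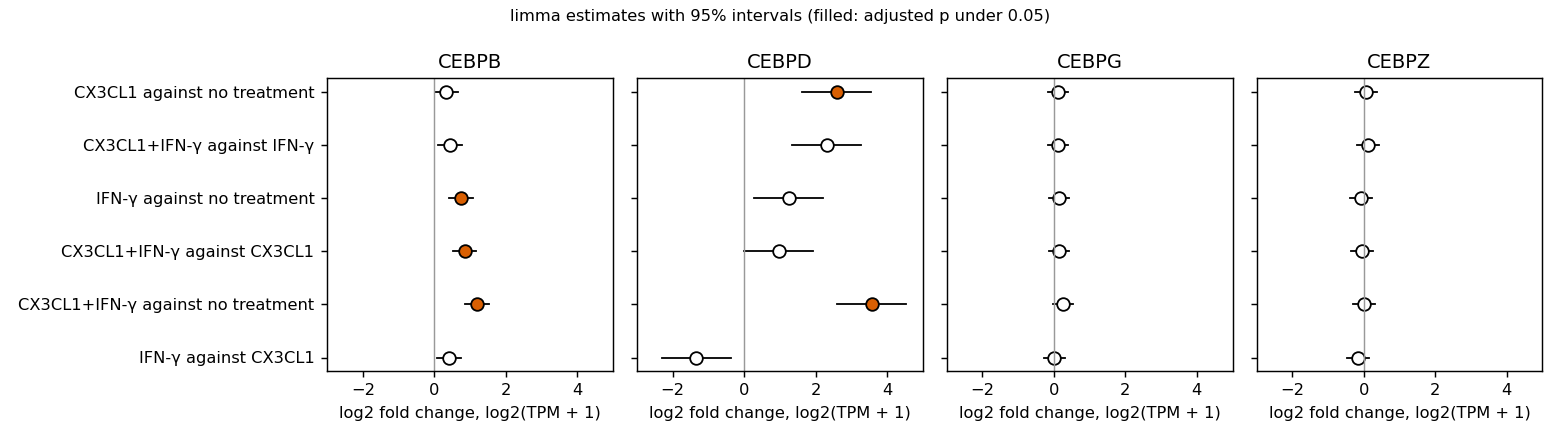
log2 fold changes on the log2(TPM + 1) scale with 95% intervals from limma, for the 4 members tested and 6 comparisons of the 4 groups; filled points have an adjusted p under 0.05. CEBPD is filled for CX3CL1 against no treatment (2.60) and for CX3CL1+IFN-γ against no treatment (3.57), CEBPB for IFN-γ against no treatment (0.75), CX3CL1+IFN-γ against CX3CL1 (0.85) and CX3CL1+IFN-γ against no treatment (1.19), and CEBPG and CEBPZ for none.

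The order of the group means differed between these members. For CEBPD it was no treatment, IFN-γ, CX3CL1 and CX3CL1+IFN-γ, and for CEBPB no treatment, CX3CL1, IFN-γ and CX3CL1+IFN-γ. In the fit of all 12 libraries without a block, neighbours in this order did not pass the test for CEBPD. Under the alternatives, CEBPD passed in 3 of 17 for IFN-γ against no treatment, in 4 of 17 for IFN-γ against CX3CL1 and in 0 of 17 for CX3CL1+IFN-γ against CX3CL1. For CEBPB neighbours passed neither in that fit nor in any of the 17 alternatives. The comparisons share libraries, so they are not independent of each other.

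The effects of the agents together were set against those of each alone. On the log2 scale, CEBPD gave 2.60 with CX3CL1 and 1.25 with IFN-γ, a sum of 3.85, against 3.57 observed. The interaction was -0.28 (95% interval -1.64 to 1.09, limma adjusted p = 1). On the TPM scale, the mean of CEBPD was higher by 33.5 with CX3CL1, by 13.2 with IFN-γ and by 73.7 with both, against a sum of 46.8, so that the sign of the departure from the sum depended on the scale. Without IFN-γ replicate 1 the log2 interaction was 0.40. For CEBPB the log2 sum was 1.09 against 1.19 observed, with an interaction of 0.10 (95% interval -0.37 to 0.57, limma adjusted p = 1), and the TPM differences were 17.6, 46.5 and 86.8 against a sum of 64.1. limma called 0 genes of any kind for the interaction, and 273 of the 11878 tested had an unadjusted p under 0.05. Blocking on the replicate number gave 52 calls, 3 higher and 49 lower, none of them a C/EBP gene. The intervals leave room for interactions of either sign.

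CEBPG encodes C/EBP-γ, the partner and inhibitor of other C/EBP proteins. It was at 52.0, 56.3 and 49.5 TPM without treatment and at 48.5, 72.6 and 53.0 TPM with CX3CL1. With IFN-γ it was at 56.2, 57.2 and 60.1 TPM, and with CX3CL1+IFN-γ at 58.7, 65.9 and 65.2 TPM. The other libraries lay between 48.5 and 65.9 TPM, and CX3CL1 replicate 2 was the highest. The largest difference was CX3CL1+IFN-γ against no treatment, 0.26 on the log2 scale (95% interval -0.02 to 0.54, limma adjusted p = 0.241), where the groups did not overlap, as for 18.6% of all genes in that direction. It passed in 1 of 17 alternatives, centring by GC content and length with the replicate block (0.21, adjusted p = 0.0441), over a range of adjusted p-values from 0.0441 to 0.479.

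CEBPZ, the nucleolar factor, was the most abundant of the 5 without treatment, at 96.5, 93.6 and 90.1 TPM. With CX3CL1 it was at 83.6, 131 and 86.4 TPM, with IFN-γ at 87.3, 92.3 and 83.8 TPM, and with CX3CL1+IFN-γ at 93.0, 102 and 89.4 TPM. The groups overlapped in all 6 comparisons, with log2 differences between -0.16 and 0.11 and limma adjusted p-values of 0.551 or more. The 95% interval of the CX3CL1 difference ran from -0.24 to 0.38. CEBPZOS, its neighbor on the other strand, had means of 11.1, 10.7, 9.08 and 9.54 TPM and passed in no comparison. The kit keeps strand, but the strand setting of the counting is not given in the sources used here, so reads of the shared 1301 bases may not be told apart. Of 8 tested genes in a list of the NOC family, ribosome biogenesis partners and CEBPZOS, 1 rose with IFN-γ (NOC4L, 0.38, limma adjusted p = 0.0199). None passed with CX3CL1. Of all genes, 5.91% were higher with IFN-γ and 1.95% were called in either direction with CX3CL1.

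CX3CL1 replicate 2 stood apart for CEBPG and CEBPZ, and it did so for genes of low GC content in general. Its median deviation from the other CX3CL1 libraries ran from 0.51 on the log2 scale in the tenth of genes with the lowest GC content to -0.28 in the tenth with the highest. Its deviation was 0.51 for CEBPG and 0.62 for CEBPZ, and after centring by GC content and length it was 0.07 and 0.20. For CEBPD the deviation was -0.57 before and -0.60 after centring, and for CEBPB, of high GC content, it was -0.10 before and 0.23 after. Without this library the CX3CL1 difference was -0.05 for CEBPG and -0.13 for CEBPZ, against 0.12 and 0.07 with it. Neither value passed the test.

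**Figure D3:**
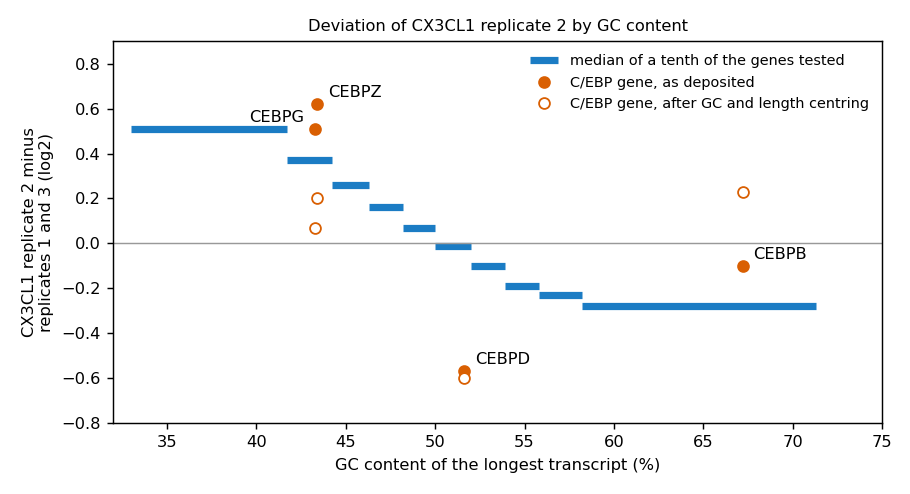
Deviation of CX3CL1 replicate 2 from the other CX3CL1 libraries, on the log2(TPM + 1) scale, against GC content of the longest transcript; bars are medians over 10 bins of the genes tested, cut by GC content, filled points the members as deposited and open points after centring. CEBPG and CEBPZ lie near the bars of low-GC genes and move to 0.07 and 0.20 with centring, CEBPB moves from -0.10 to 0.23, and CEBPD stays near -0.60.

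CEBPA encodes C/EBP-α, a factor that halts proliferation in the tissues where it acts. It was at 0.0432, 0.0147 and 0.0328 TPM without treatment and at 0.0606, 0.0251 and 0.0147 TPM with CX3CL1. With IFN-γ it was at 0.0992, 0.0957 and 0.0788 TPM, and with CX3CL1+IFN-γ at 0.0283, 0.0505 and 0.0631 TPM. The IFN-γ libraries were the highest, without overlap with any other group. Against no treatment alone 20.6% of genes tested were higher without overlap, and the share above every other group was not computed. The mean of CEBPA, 0.0505 TPM over 12 libraries, was below the filter of 0.2 TPM, so CEBPA was not tested. With no filter the IFN-γ difference was 0.08 on the log2(TPM + 1) scale (limma adjusted p = 0.0382 over 16889 genes), a difference of hundredths of a TPM, and the CX3CL1 difference was 0.004 (adjusted p = 1). TPM carry no read depth, so how many reads lie behind these values is unknown. CEBPE, the granulocyte factor of the family, which was not among the 5, was listed at 0.117 TPM or less in every library. Of 10 genes linked to C/EBP-α in adipocytes, hepatocytes and granulocytes, 1 was tested (FABP4) and it passed in no comparison.

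With their levels side by side, the makeup of the bZIP members shifted. CEBPA, CEBPB, CEBPD and CEBPG summed to 123 ± 4.32 TPM without treatment, 180 ± 1.42 with CX3CL1, 188 ± 36.5 with IFN-γ and 295 ± 53.6 with CX3CL1+IFN-γ (SD, n = 3). The CEBPD share of that sum was 4.84, 3.79 and 4.85% without treatment and 25.7, 16.2 and 23.3% with CX3CL1. It was 17.1, 4.8 and 5.52% with IFN-γ and 30.9, 22.4 and 25.8% with CX3CL1+IFN-γ. CEBPD thus had a mean share of 4.49% in untreated cells and a mean share of 21.7% with CX3CL1 and 26.4% with CX3CL1+IFN-γ. CEBPB made up 52.9, 46.0, 59.3 and 51.5% in the 4 groups in mean, and CEBPG 42.6, 32.2, 31.5 and 22.1%. With CX3CL1 the CEBPG share was 26.8, 40.2 and 29.7% by replicate. Replicate 2, which stood high for genes of low GC content, thus raised that mean. The ratio of CEBPD to CEBPB had means of 0.085, 0.469, 0.155 and 0.512. These shares describe mRNA, and were not tested.

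**Figure D4:**
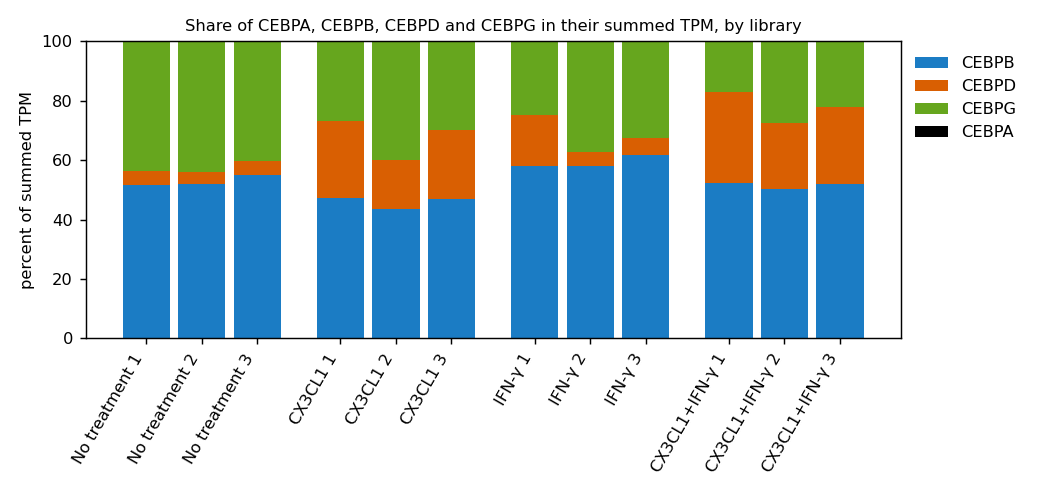
Share of CEBPA, CEBPB, CEBPD and CEBPG in their summed TPM, in percent, for each of the 12 libraries. The CEBPD share is under 5% in the untreated libraries and at least 16.2% in each library with CX3CL1, while IFN-γ replicate 1 (17.1%) stands apart from the other IFN-γ libraries; CEBPA is too low to be seen.

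Over the 12 libraries, the genes whose pattern was most like that of each member were found by Pearson correlation of log2(TPM + 1) among the 10753 other genes that averaged 1 TPM or more. The points share 4 groups and the replicate differences, and the values are a description. For CEBPD they were MAP3K8 (0.978), CHD1L (0.97), NFKBIZ (0.964), CXCL5 (0.955) and ZC3H12A (0.953). MAP3K8, a kinase of inflammatory signaling, had means of 0.564, 2.77, 1.5 and 3.85 TPM, with the same order of groups as CEBPD. For CEBPB they were TNFRSF1A (0.981), IL13RA1 (0.976), STEAP1 and OSMR (0.971 each) and TGIF1 (0.968). TNFRSF1A, a TNF receptor, had means of 95.3, 106, 119 and 137 TPM, with the same order of groups as CEBPB. For CEBPG they were SCYL2 (0.938), TBPL1 (0.935), GPR137B-PS (0.93), SPATA5 (0.919) and LSM14A (0.918), and for CEBPZ GM10033 (0.977), CDV3 (0.976), DLD (0.971) and PDS5A (0.965). SCYL2 and GM10033 also had their highest value in CX3CL1 replicate 2, at 42.8 and 41.6 TPM.

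Part of a list written as inflammatory and acute-phase genes with known C/EBP sites rose with each agent. The sites were not checked gene by gene, and the C/EBP letters were found in 6 of the 9 tested genes with a promoter window. Whether C/EBP proteins act on the listed genes in these cells was not tested. Of 22 listed genes 15 were tested, and 9 rose and 0 fell with CX3CL1, beside 1.78% of all genes higher, with a median log2 difference of 2.66 against -0.02 for all genes. With IFN-γ 7 rose and 0 fell, beside 5.91% higher of all genes (median 1.01 against 0.03). With CX3CL1+IFN-γ against no treatment the 15 tested genes rose, beside 8.21% of all genes (median 4.13 against 0.02). Adding CX3CL1 to IFN-γ raised 8, beside 0.345% of all genes (median 2.07). Adding IFN-γ to CX3CL1 raised 6, beside 3.76% of all genes. With the replicate block that count was 11, and over all 11878 genes the count called higher went from 447 to 1035. Between IFN-γ and CX3CL1, 5 were lower with IFN-γ, beside 1.06% of all genes. The filter was on the mean over 12 libraries, and CSF3 and CXCL2 (0 TPM), HP (0.016), NOS2 (0.0324) and CXCL5 (0.0797) had untreated means below 0.2 TPM, so they passed it through the treated groups. These counts and medians are thus fixed in part by the filter and are a description of the tested genes, not of the 22 listed. The list holds genes that the study names for these cells, so it is not independent evidence of direction. Without the 4 libraries numbered 1, these counts were 8 with CX3CL1, 6 with IFN-γ, 14 with both, 5 for CX3CL1 added to IFN-γ and 5 for IFN-γ added to CX3CL1. Over all 11878 genes, 154, 461, 828, 12 and 222 were higher in these comparisons, in the same order.

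Of the listed genes, CXCL1, a neutrophil chemokine, rose most with CX3CL1, by 6.17 on the log2 scale (limma adjusted p = 6.87e-06). IL6, the cytokine after which NF-IL6 was named, was at 0.238, 0.203 and 0.407 TPM without treatment and at 2.68, 1.67 and 2.03 TPM with CX3CL1. With IFN-γ it was at 4.39, 4.50 and 4.27 TPM, and with CX3CL1+IFN-γ at 24.9, 13.6 and 29.6 TPM. Its groups did not overlap in the comparisons with no treatment. The same held, in the higher direction, for 5.5% of all genes with CX3CL1, 20.6% with IFN-γ and 18.6% with CX3CL1+IFN-γ. SAA3, an acute-phase protein, rose by 2.84 with CX3CL1 (limma adjusted p = 0.023) and by 4.44 with IFN-γ (adjusted p = 0.000323). CSF3, the granulocyte growth factor, had 0 TPM in each untreated library, while the CX3CL1+IFN-γ libraries gave 9.39, 1.5 and 2.66 TPM.

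**Figure D5:**
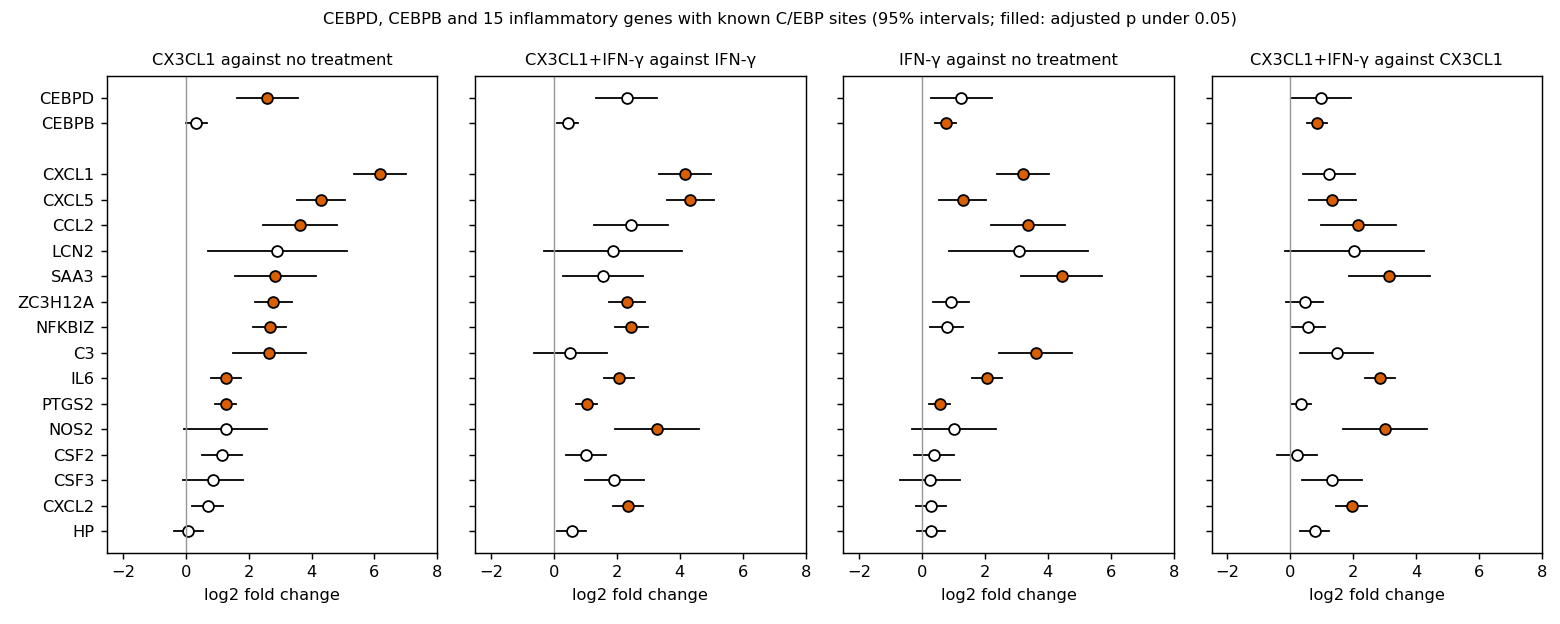
log2 fold changes on the log2(TPM + 1) scale with 95% intervals for CEBPD, CEBPB and the 15 tested genes of the list written as inflammatory genes with known C/EBP sites, in 4 comparisons; filled points have an adjusted p under 0.05. With CX3CL1 against no treatment 9 of 15 are filled and with IFN-γ 7 of 15, all to the right of 0.

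In the 3 treated groups CEBPD was highest in replicate 1. Replicate 1 also held the highest value for 13, 12 and 12 of the 15 genes with CX3CL1, IFN-γ and CX3CL1+IFN-γ, against 37.6, 47.9 and 46% of all genes tested. Among untreated libraries CEBPD was highest in replicate 3, while 10 of the 15 genes were highest in replicate 1, against 57.6% of all genes. CSF3 and CXCL2, at 0 TPM in each untreated library, were not counted as highest in any. The shares of all genes put a gene at 0 throughout a group under replicate 1, so they are not the same measure and overstate that replicate. LCN2, an acute-phase protein secreted by epithelium and neutrophils, was at 587, 42.4 and 98.9 TPM with IFN-γ and at 1416, 188 and 473 TPM with CX3CL1+IFN-γ. As for CEBPD, replicate 1 was the highest in both groups. LCN2 passed only between CX3CL1+IFN-γ and no treatment (4.95, limma adjusted p = 0.00576). What sets the number 1 libraries apart was not tested.

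Of the 15 tested genes 9 matched the promoter table, and 6 of these held the C/EBP letters TTGCNNAA, on either strand, in the 250 bases before the RefSeq start, against 9.56% of all windows. The list was written as genes with known C/EBP sites, so this share was fixed in part by the choice. The matches are shown with 10 bases on each side, along the gene's strand and with the match in capitals (GRCm38.p6).
IL6: cgacgtcacaTTGTGCAAtcttaataag
CSF2: taggtagagcTTGCCCAAaggcctccag
LCN2: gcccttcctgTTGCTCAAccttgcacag
SAA3: gtaagtgggaTTATGCAAgatcaaacag
C3: ggaaactatgTTGCGAAAttttgggcag
PTGS2: gctgcggttcTTGCGCAActcactgaag
The matches lay at -128 to -121 in IL6, at -145 to -138 in CSF2, at -216 to -209 in LCN2, at -99 to -92 in SAA3, at -45 to -38 in C3 and at -69 to -62 in PTGS2. No binding was measured in these cells.

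Several genes for partners and inhibitors of C/EBP proteins rose with IFN-γ. Of 10 bZIP genes tested 0 passed with CX3CL1, against 1.95% of all genes called. With IFN-γ 3 rose and 0 fell, against 5.91% of all genes higher and 7.85% called in either direction. DDIT3, which encodes CHOP and blocks C/EBP binding as a dimer, rose by 1.40 on the log2 scale with IFN-γ (limma adjusted p = 0.00187), with 98.8, 109 and 100 TPM untreated and 382, 202 and 264 TPM with IFN-γ. BATF2 rose by 3.06 (adjusted p = 0.00033) and NFIL3 by 0.78 (adjusted p = 0.000461). ATF4, a partner of C/EBP-γ, had a mean of 831 ± 193 TPM untreated and 988 ± 39.2 TPM with IFN-γ and passed in no comparison. With CX3CL1+IFN-γ against no treatment the same 3 genes rose, and DBP (-1.09), ATF5 (-0.56) and TEF (-0.51) fell. Over all 11878 genes tested, 975 were higher and 442 lower in that comparison. Without the libraries numbered 1, 4 rose and 1 fell there, beside 828 higher and 272 lower of all genes.

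Of 5 tested genes listed for Tribbles and COP1 control of C/EBP protein stability, TRIB3 rose with IFN-γ (0.96, limma adjusted p = 0.0158) and none with CX3CL1, beside 5.91% and 1.78% of all genes higher. Whether TRIB3 acts on C/EBP proteins was not tested. TRIB1, an adaptor for C/EBP-α breakdown, rose with CX3CL1+IFN-γ against no treatment (0.44, adjusted p = 0.0201). Of 14 amino acid response genes of ATF4 and C/EBP factors 1 rose with CX3CL1, the cystine transporter SLC7A11 (1.15, limma adjusted p = 0.0395), beside 1.78% of all genes. Beside 5.91% of all genes, 5 rose with IFN-γ, among them SLC7A11 (1.25, limma adjusted p = 0.00923), DDIT3, TRIB3 and SLC3A2 (0.59, adjusted p = 0.00176). Without the libraries numbered 1 these counts were 0 and 1, beside 154 and 461 of 11878 genes higher. Of 13 tested genes of IL-6 and IL-1 signaling, which lies upstream of CEBPB and CEBPD, IL6 and LIF rose with CX3CL1, beside 1.78% of all genes. With IFN-γ, beside 5.91% of all genes, 5 rose, IL6, LIF, OSMR, STAT3 (0.80, adjusted p = 0.00887) and MYD88. Without the libraries numbered 1 these counts were 0 and 3, beside the same 154 and 461 genes higher. Of 2 listed IFN-γ genes with a known C/EBP-β element, IRF9 was tested. DAPK1, with a mean of 0.021 TPM over 12 libraries, was below the filter. IRF9 rose by 1.12 with IFN-γ (limma adjusted p = 2.89e-05) and by 0.80 with CX3CL1 (adjusted p = 0.00176), beside 5.91% and 1.78% of all genes higher.

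The cells were checked against markers. Of 7 epithelial markers 1 was tested (KRT18) and EPCAM was listed at 0 in every library, while 5 of 5 mesenchymal markers were tested. The summed epithelial markers ran from 34.5 to 53.8 TPM without treatment, 25.3 to 37.1 with CX3CL1, 26.0 to 29.7 with IFN-γ and 18.5 to 24.5 with CX3CL1+IFN-γ. KRT18 fell with IFN-γ (-0.68, limma adjusted p = 0.0346) and with CX3CL1+IFN-γ (-1.02, adjusted p = 0.00171) against no treatment. The summed mesenchymal markers ran from 4032 to 5209 TPM without treatment, 3581 to 4234 with CX3CL1, 2811 to 3852 with IFN-γ and 2113 to 3410.5 with CX3CL1+IFN-γ. Of these, VIM (-0.86, limma adjusted p = 0.0186) and COL1A1 (-1.24, adjusted p = 0.00139) were lower with CX3CL1+IFN-γ than without treatment. The part of either list in the C/EBP differences was not tested. Of 9 leukocyte markers 2 were tested (CD68 and LYZ2), with sums from 8.34 to 27.5 TPM over all libraries, and PTPRC, which marks leukocytes, was close to 0.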

How the data were processed

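RNA was sequenced from CT26 cells in 4 groups of 3 libraries, which the labels call biological replicates; nothing used here says whether they were separate cultures, so p-values measure the spread between these libraries, which may be technical. Doses and time come from the paper's legend. Libraries kept strand; the authors used STAR 2.7.3a on mm10 within VIPER, and DESeq2 1.22.1 for counts (versions from the submitters' processing notes). The deposited table is in TPM and sums to 1000000 per library; the annotation and the way TPM were made are not given in the sources used here. Counts were not used here, so read depth is unknown, no counting error is given, and a log-scale test was used in place of the authors' count test. From 10613 to 10824 symbols reached 1 TPM per library, and no pair of libraries was identical.

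limma 3.58.1 in R 4.3.3 (lmFit, eBayes with an intensity trend) was run on log2(TPM + 1) over all 12 libraries without a block, for 11878 genes averaging 0.2 TPM or more, with Benjamini-Hochberg adjustment over these genes within each comparison and a threshold of 0.05. The fit was checked on simulated data. Members and lists were chosen with earlier results of these data known. Named genes were the members, CEBPE, up to 5 called genes per list and comparison, listed partners and neighbors of members, and the 5 genes most like each member, of which 1 for CEBPZ is not reported here and those for CEBPA, which was near 0, were left out. KRT18, CD68, LYZ2, EPCAM and PTPRC were named as markers. Deviations from group means of same-numbered libraries correlated at 0.22 to 0.46 between no treatment and IFN-γ, 0.226 to 0.584 between CX3CL1 and IFN-γ, 0.351 to 0.428 between CX3CL1 and CX3CL1+IFN-γ and 0.63 to 0.649 between IFN-γ and CX3CL1+IFN-γ, so the numbers were taken to pair these libraries; for no treatment with CX3CL1 (0.005 to 0.387) and with CX3CL1+IFN-γ (0.032 to 0.447) they were not. GC content, positions and lengths are from GENCODE vM21 (GRCm38), which gave a value for 98.9% of genes tested, and promoters from RefSeq (GRCm38.p6), where 3 of 5 members matched. Alternatives changed the pseudocount, filter, scaling, libraries fitted, intensity trend and block, left out each library, and, chosen after the data were seen, centred by GC content and length and left out the libraries numbered 1.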

Additional observations from a re-analysis of the deposited data

How the results depend on the processing

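CEBPD with CX3CL1 and with CX3CL1+IFN-γ against no treatment, and CEBPB with CX3CL1+IFN-γ against no treatment, passed in each of 17 alternatives. CEBPB with IFN-γ and with CX3CL1+IFN-γ against CX3CL1 passed in 16 of 17. The single-library omissions kept 1 C/EBP gene called for CX3CL1, 1 for CX3CL1+IFN-γ against CX3CL1 and 2 for CX3CL1+IFN-γ against no treatment. They gave 1 to 2 for IFN-γ against no treatment, and 0 to 1 for CX3CL1+IFN-γ against IFN-γ and for IFN-γ against CX3CL1. The counts of all genes called ran from 152 to 268 for CX3CL1, from 530 to 764 for IFN-γ, from 16 to 54 for CX3CL1+IFN-γ against IFN-γ, from 270 to 668 against CX3CL1, from 924 to 1345 against no treatment, from 185 to 457 for IFN-γ against CX3CL1 and from 0 to 11 for the interaction, against 232, 932, 43, 558, 1417, 544 and 0.

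With the replicate block these counts were 455, 1929, 95, 1369, 2464, 1601 and 52, and the C/EBP genes called were 2 with IFN-γ, 1 with CX3CL1+IFN-γ against IFN-γ and 1 with IFN-γ against CX3CL1, the added gene being CEBPD (1.25, 2.32 and -1.34). The block changed no other call on a member. Centring by GC content and length gave 1414 with IFN-γ, 852 with CX3CL1+IFN-γ against CX3CL1 and 2164 against no treatment. With the block as well it gave 708, 2988, 166, 2281, 3783, 2105 and 86, and 2, 1 and 1 C/EBP genes as under the block. No filter on low TPM gave 28 genes for CX3CL1+IFN-γ against IFN-γ and 2 C/EBP genes for IFN-γ, because CEBPA was then tested. The libraries compared alone gave 20, 344 and 252 genes for CX3CL1+IFN-γ against IFN-γ, against CX3CL1 and for IFN-γ against CX3CL1, and no interaction value. A filter of 1 TPM, median-ratio scaling and quantile normalization each called 1 C/EBP gene, CEBPD, for CX3CL1+IFN-γ against IFN-γ (adjusted p = 0.0467, 0.0446 and 0.0482, over a range from 0.000303 to 0.328), and quantile normalization called 1 gene for the interaction. Without the libraries numbered 1, 565, 13, 264 and 144 genes were called for IFN-γ, for CX3CL1+IFN-γ against IFN-γ and against CX3CL1, and for IFN-γ against CX3CL1, with 0, 1, 0 and 1 C/EBP genes.

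Under other scaling the share of higher among called genes moved: for IFN-γ from 75.3% to 64.6% with median-ratio scaling, 50.9% with quantile normalization and 56.4% with GC centring, and for CX3CL1+IFN-γ against no treatment from 68.8% to 47.3% with quantile normalization. For CX3CL1+IFN-γ against CX3CL1 it moved from 80.1% to 65.6, 60.5 and 58.6%, and for IFN-γ against CX3CL1 from 76.8% to 55.2, 54.1 and 51.3%. No scaling moved the median of all genes by over 0.1.

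Sign changes fell on small differences that did not pass. CEBPZ for CX3CL1+IFN-γ against no treatment gave -0.02 with median-ratio scaling, -0.01 with quantile normalization, both centrings and no untreated replicate 3, and -0.03 to 0.06 over single omissions (-0.03 without CX3CL1+IFN-γ replicate 2). CEBPG for IFN-γ against CX3CL1 gave -0.06, 0.0 and -0.08 with median-ratio scaling, quantile normalization and no libraries numbered 1, and -0.1 to 0.19 over single omissions (-0.1, -0.04 and -0.01 without CX3CL1 replicate 1, CX3CL1 replicate 3 and IFN-γ replicate 3). Without CX3CL1 replicate 2, CEBPZ and CEBPG with CX3CL1 gave -0.13 and -0.05 (to 0.19 and 0.24 over single omissions), and CEBPZ gave 0.15 for CX3CL1+IFN-γ and 0.05 for IFN-γ against CX3CL1 (from -0.17 and -0.28). Of the interactions, CEBPG gave -0.02 with median-ratio scaling, -0.05 with both centrings, -0.07 without libraries numbered 1 and -0.11 to 0.18 over single omissions (among them -0.04, -0.05, -0.01, 0.0 and -0.02), CEBPZ gave -0.01 with both centrings, -0.09 without libraries numbered 1 and -0.08 to 0.24 over single omissions (among them -0.06 and -0.02), CEBPD gave 0.26 without libraries numbered 1 and 0.40 without IFN-γ replicate 1 (single omissions from -0.72), and CEBPB gave -0.05 to 0.25 over single omissions, -0.05 without IFN-γ replicate 2 and -0.04 without CX3CL1+IFN-γ replicate 1. Their causes were not tested. No detection limit was measured for small differences of CEBPG and CEBPZ, and nothing can be said of reads behind CEBPA.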
